A study of Mus musculus with 2 samples.

Results

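The expression of S100a3, S100a4, S100a6, S100a8, S100a9, S100a10, S100a11, Ahnak, Vim and Lgals1 was described in single cells of murine popliteal lymph nodes (PLNs). These 10 genes, of 32285 listed, were chosen by their levels in the same cells, where earlier readings had linked them to memory cells and, for S100a8 and S100a9, to free RNA, so their levels across subsets are given as a description. The study followed TNF-Tg mice, which carry a human TNF transgene and develop inflammatory-erosive arthritis, and asked how the cells of the joint-draining PLN change as arthritis advances. Cells of both libraries came from male TNF-Tg mice of a line that carries one copy of the transgene, on a C57BL/6 background. The Early library held PLN cells of mice 5 to 6 months old, and the Advanced library held those of mice more than 8 months old. Each library pooled the 6 PLNs of 3 mice, located with injected Evan's blue dye, and was a sort of live nucleated cells after enzymatic digestion. Both groups carry the transgene and no wild-type library was used here, so each difference below is between stages of the model. With 1 pooled library per stage, stage, age and library cannot be told apart, no test between mice was possible, and the 95% intervals given cover counting error only.

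S100 proteins are small calcium-binding proteins, and most of their genes lie in a cluster on mouse chromosome 3. S100a8 and S100a9 encode the partners of calprotectin, a cytosolic protein of neutrophils and an alarmin once released. S100a4 and S100a6 are closely placed genes known from motile and differentiated cells, and S100a10 (p11) and S100a11 encode partners of annexins A2 and A1. Ahnak, a giant scaffold protein that binds the S100A10-annexin A2 complex, Vim, the intermediate filament vimentin, and Lgals1, the β-galactoside-binding galectin-1, recur with them in descriptions of antigen-experienced lymphocytes.

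Because S100a4 and S100a6, and likewise S100a8 and S100a9, lie close together on chromosome 3 and their levels are set side by side below, the 150 bases before the annotated start of each are shown, from RefSeq on GRCm38.p6, 5′ to 3′ on the strand of the gene, with the motif TATAAA in capitals. The windows are chr3:90603620-90603769 (plus strand) for S100a4, chr3:90612744-90612893 (plus strand) for S100a6, chr3:90668921-90669070 (plus strand) for S100a8 and chr3:90695722-90695871 (minus strand) for S100a9.
S100a4: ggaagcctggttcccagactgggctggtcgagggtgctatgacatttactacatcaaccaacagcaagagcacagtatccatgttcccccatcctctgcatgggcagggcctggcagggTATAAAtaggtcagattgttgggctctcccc
S100a6: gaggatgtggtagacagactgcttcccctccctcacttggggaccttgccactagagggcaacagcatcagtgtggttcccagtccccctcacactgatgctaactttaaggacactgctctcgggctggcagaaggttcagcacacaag
S100a8: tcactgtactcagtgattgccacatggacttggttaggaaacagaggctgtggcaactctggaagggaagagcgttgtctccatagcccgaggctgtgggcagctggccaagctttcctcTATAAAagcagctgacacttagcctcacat
S100a9: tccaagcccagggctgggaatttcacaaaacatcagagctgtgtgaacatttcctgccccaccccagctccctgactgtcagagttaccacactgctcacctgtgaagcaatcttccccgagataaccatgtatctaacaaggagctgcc
The starts of S100a4 and S100a6 lie 9.1 kb apart with S100a5 between them, and those of S100a8 and S100a9, which are read from opposite strands, lie 26.7 kb apart. TATAAA stood 31 to 26 bases before the start of S100a4 and 30 to 25 bases before that of S100a8. These letters were absent on both strands from the windows of their partners S100a6 and S100a9. Of the 8 members with an entry in the table, Vim held the motif 32 to 27 bases before its start and S100a3 held it at 1 of its starts, whereas S100a11 and Ahnak did not. Among 32851 starts of 27025 genes, 7.57% of windows of the same length held it, and a match describes letters and not a working site. S100a10 and Lgals1 had no entry.

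A total of 67610110 unique molecular identifiers (UMIs, each 1 captured mRNA) was counted over 8242 Early barcodes and 83148059 over 8201 Advanced barcodes. After removal of those with fewer than 200 genes, 8221 and 8183 cells were kept, at a median of 6643 and 7837 UMIs, and 19 barcode sequences occurred in both libraries. Subsets were gated on raw UMIs of marker genes, none of them a member, which gave 7530 B-cells, 168 T-cells, 103 monocytes and 123 dendritic cells (DCs) in the Early library and 5856, 1149, 176 and 211 in the Advanced library. As markers outside the gates, Ikzf2 was detected in 87.2% and 88.1% of the Foxp3-gated regulatory T-cells, Csf1r in 97.9% and 98.7% of the non-classical monocytes and Ccr9 in 95.5% and 94.8% of the plasmacytoid DCs. No doublet caller was run, and 85 Early and 360 Advanced cells with markers of more than 1 lineage were kept out of every subset. Superlatives below refer to subsets with at least 10 cells in each library. Levels are CPM (the count of a gene scaled to 1e6 UMIs) of the UMIs summed over the cells of a subset, given as Early and then Advanced.

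S100a4, a calcium-binding regulator of cell motility, was high in cDC2-gated and mature DCs, non-classical monocytes and regulatory, helper, gamma delta and cycling T-cells, lower in cDC1-gated and NK-gene memory T-cells, and near its lowest in naive-like lymphocytes. In cDC2-gated cells it reached 5766 CPM (95% interval 5457 to 6088) and 3719 CPM (3561 to 3882), with a UMI in 100% of cells at both stages. Mature DCs followed at 5459 (5242 to 5683) and 4515 (4400 to 4633) CPM, and the order of these DC subsets was not the same in the 2 libraries. Non-classical monocytes held 2423 (2333 to 2515) and 1785 (1719 to 1852) CPM, detected in 97.9% and 98.7% of cells. These myeloid subsets therefore carried S100a4 in nearly every cell. In cDC1-gated cells, the cross-presenting DC lineage, the level was 39.0 and 57.4 CPM. Plasmacytoid DCs, known as producers of type I interferon, were in between at 508.0 and 372.6 CPM, with S100a4 detected in 31.8% and 43.8% of cells.

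Among T-cells the S100a4 level split by subset. Regulatory T-cells, gated on Foxp3, held 1640 (1515 to 1772) and 1110 (1046 to 1176) CPM. Helper cells, gated on activation genes such as Icos, Pdcd1 and Cd40lg, held 1305 (1165 to 1458) and 756.5 (705.7 to 809.9) CPM. In cycling T-cells the Advanced level was instead the higher one, at 1388 and 1708 CPM. The gamma delta subset rested on 7 Early and 77 Advanced cells, with 2264 and 983.2 CPM. Memory T-cells gated on genes shared with NK cells, such as Ccl5 and Klrk1, held less, at 145.7 and 90.1 CPM. Naive-like CD8 T-cells, gated on genes such as Lef1, Ccr7 and Igfbp4, had 1 UMI in 23 Early cells (3.66 CPM) and 90 UMIs in 344 Advanced cells (21.1 CPM), of which 34 came from 1 cell. Precursor T-cells with Rag1 or Dntt had 1 UMI in 16 and 7 UMIs in 77 cells (2.44 and 6.02 CPM).

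**Figure D1:**
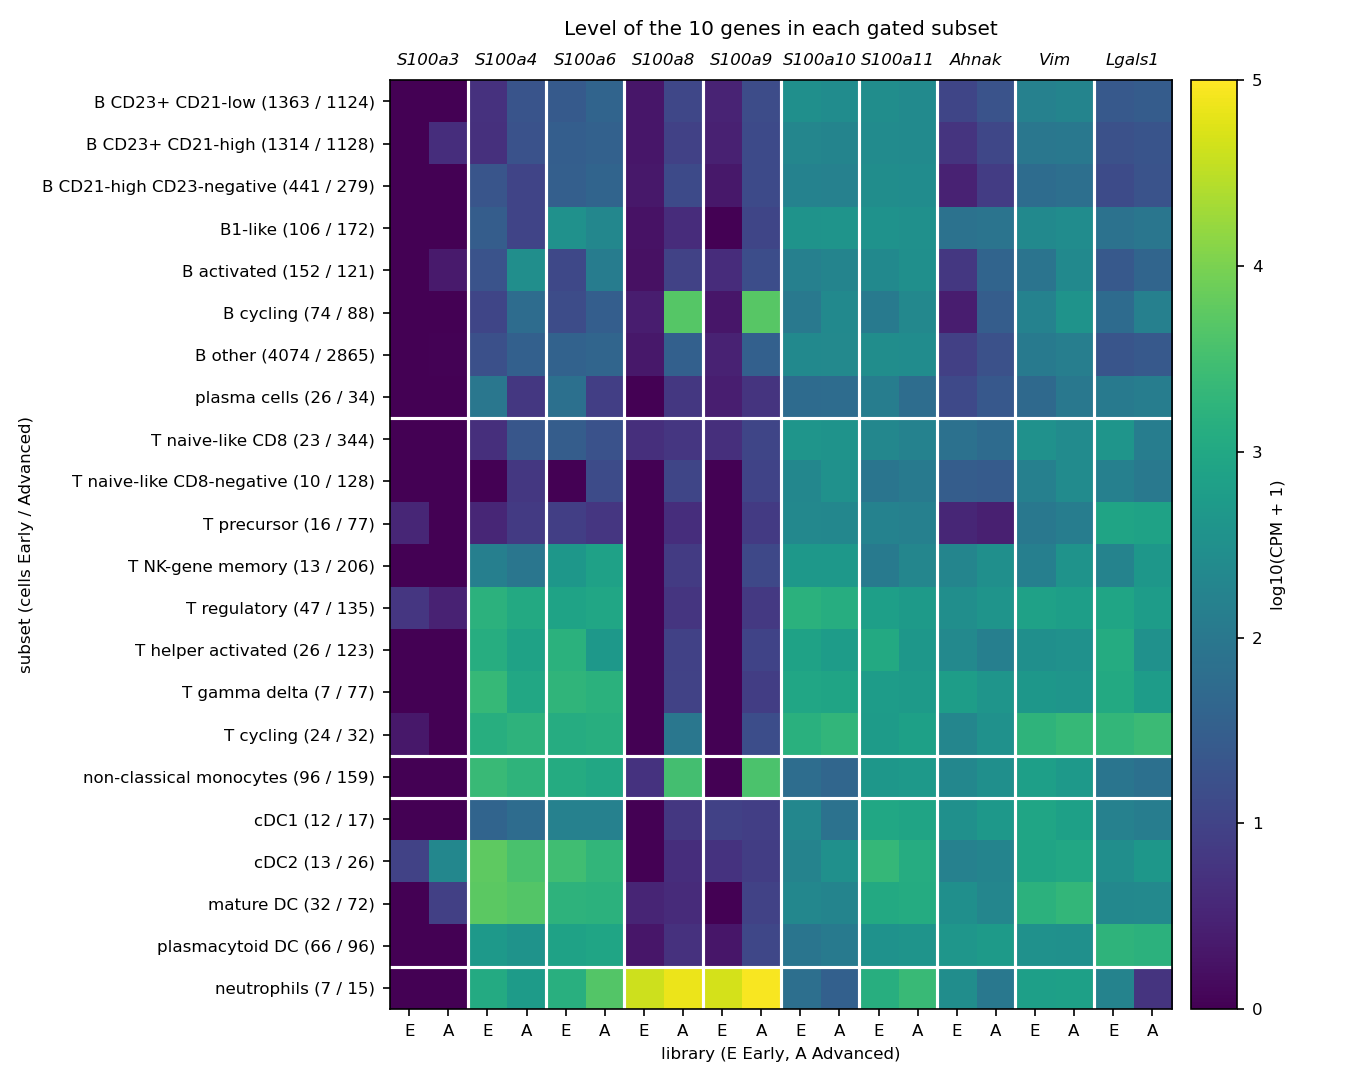
Heatmap of log10(CPM + 1) for the 10 genes (columns) in 22 gated subsets (rows), with the Early (E) and Advanced (A) libraries side by side. S100a4 and S100a6 are high in cDC2-gated and mature DCs, monocytes and several T-cell subsets, S100a10 and S100a11 are present throughout, and S100a8 and S100a9 reach their highest levels in the neutrophil gate.

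S100a6, whose product calcyclin is linked to proliferating and differentiated cells, followed S100a4 in part. The gene was highest in cDC2-gated cells, at 2885 and 1926 CPM, and in mature DCs, at 1719 and 1611 CPM. Plasmacytoid DCs held 770.8 and 871.7 CPM with a UMI in 93.9% and 100% of cells, so that S100a6 reached nearly all plasmacytoid DCs while S100a4 was detected in fewer than 50% of them at either stage. NK-gene memory T-cells held 437.1 and 719.7 CPM, against 29.3 and 17.6 CPM in naive-like CD8 T-cells. Regulatory T-cells held 803.3 (716.6 to 897.6) and 891.9 (834.8 to 951.8) CPM. In the B lineage S100a6 marked the B1-like gate, cells with Bhlhe41, Zbtb32 or Cd5, at 340.6 (310.6 to 372.8) and 206.8 (189.0 to 225.8) CPM, compared with 25.1 and 39.6 CPM in CD23+ CD21-low B-cells. It was not spread over the B1-like gate, as 20 of 106 and 20 of 172 cells held 5 or more S100a6 UMIs and carried 96.4% and 88.3% of its S100a6.

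The ratio of S100a4 to S100a6 UMIs therefore differed between subsets that held both. It was 3.18 (2.92 to 3.45) and 2.80 (2.66 to 2.95) in mature DCs and 2.0 and 1.93 in cDC2-gated cells. Non-classical monocytes had 2.07 (1.94 to 2.21) and 1.77 (1.66 to 1.88) S100a4 UMIs per S100a6 UMI. On the other side of equality stood NK-gene memory T-cells, at 0.333 (0.205 to 0.526) and 0.125 (0.110 to 0.142), and plasmacytoid DCs, at 0.659 and 0.427. The lowest ratios of the subsets named here were those of the B1-like gate, 0.0847 (0.0598 to 0.117) and 0.0465 (0.0292 to 0.0705). In regulatory T-cells the ratio was 2.04 (1.78 to 2.34) and 1.24 (1.14 to 1.36), whereas in helper cells it was 0.831 (0.713 to 0.967) and 1.67 (1.49 to 1.87). By value the 2 T subsets thus changed places between libraries. The Early helper ratio leaned on few cells, as 1 of 26 cells held 131 of the 378 S100a6 UMIs.

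S100a10 and S100a11 were present in most cells of both lymphoid lineages, at levels that varied less between subsets. In B-cells S100a10 stood at 231.9 and 228.0 CPM (detected in 74.0% and 74.5% of cells) and S100a11 at 266.6 and 258.2 CPM (80.3% and 81.4%). Per UMI of S100a11, there were 2.06 and 2.21 UMIs of S100a10 in T-cells, 0.870 and 0.883 in B-cells, 0.292 and 0.151 in monocytes and 0.177 and 0.190 in DCs. T-cells thus leaned to S100a10 and myeloid cells to S100a11. Regulatory T-cells had the highest S100a10 of the non-cycling subsets listed here, at 1542 and 1313 CPM, and non-classical monocytes were low at 61.1 and 43.1 CPM. S100a11 was highest in cDC2-gated cells, at 2102 and 1254 CPM, and cDC1-gated cells, which had little S100a4, held 946.6 and 818.4 CPM. Within B-cells the ratio of the pair fell into the same order in both libraries, with 1.11 and 1.12 in CD23+ CD21-low cells, 0.780 and 0.739 in CD23+ CD21-high cells and 0.574 and 0.579 in CD21-high CD23-negative cells, the gate nearest to marginal-zone B-cells.

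**Figure D2:**
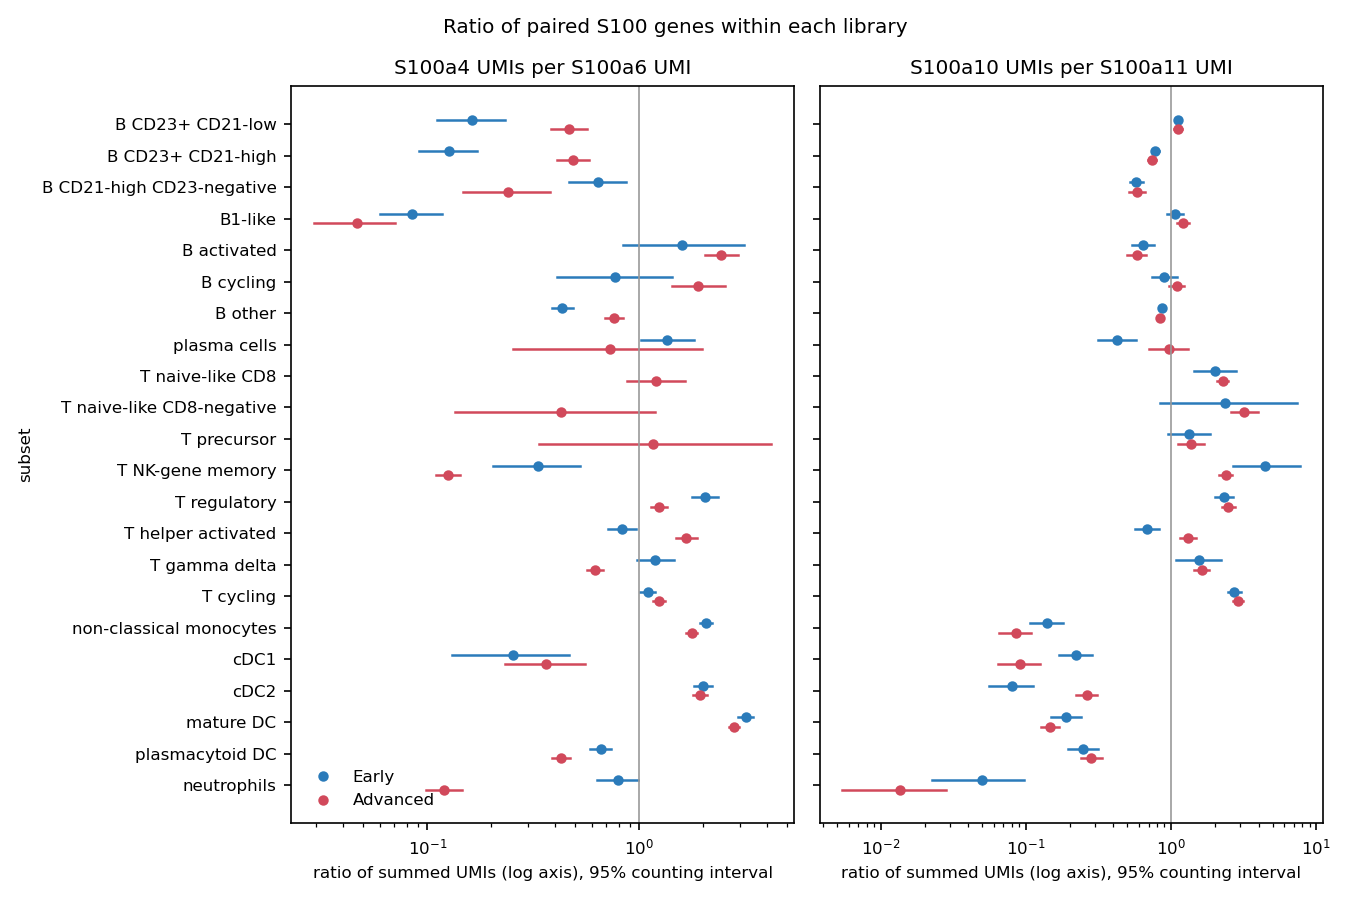
UMIs of S100a4 per UMI of S100a6 and of S100a10 per UMI of S100a11 in each subset (log axis, 95% counting intervals, line at equality), with both libraries as separate points. S100a4 exceeds S100a6 in mature DCs, cDC2 and non-classical monocytes and is far below it in B1-like cells, and S100a10 exceeds S100a11 in T-cells but not in monocytes or DCs.

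The 3 partner genes each had a pattern of their own. Ahnak was low in CD23+ B-cells, with 10.3 and 17.7 CPM in the CD21-low gate, and reached 75.8 and 81.0 CPM in B1-like cells. In T-cells it ran from 2.44 and 1.72 CPM in precursors to 290.9 and 391.5 CPM in regulatory cells, and plasmacytoid DCs held 423.0 and 523.1 CPM. Vim was detected in every one of these subsets, from 56.8 and 64.6 CPM in CD21-high CD23-negative B-cells and 49.5 and 99.6 CPM in plasma cells to 1751 and 2195 CPM in cycling T-cells and 1627 and 2088 CPM in mature DCs. Lgals1 was highest in cycling T-cells (2045 and 2557 CPM) and plasmacytoid DCs (1774 and 1662 CPM). Precursor T-cells had 826.1 and 745.1 CPM of Lgals1 while Ahnak, S100a4 and S100a6 there were each below 10 CPM, so galectin-1 transcripts did not mark memory-linked cells alone. B1-like cells held 75.1 and 92.7 CPM of Lgals1, compared with 21.9 and 39.0 CPM over all B-cells.

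S100a3 was the least detected member. In DCs 2 UMIs (0.979 CPM) were counted in the Early library and 124 UMIs (30.3 CPM) in the Advanced library. Of these, 114 came from 2 cells of the cDC2 gate, 65 of them from 1 cell. B-cells held 1 and 44 UMIs, and 38 of the 44 came from 1 CD23+ CD21-high cell. The other S100a3 signal in the classes was as thin, with 0 and 1 UMI in monocytes.

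S100a8 and S100a9 reached their highest levels in the neutrophil gate, which held 7 Early and 15 Advanced cells. S100a9 was at 46797 and 90565 CPM there, and S100a8 at 41525 and 70437 CPM. In the Early gate 1 cell held 87.8% of the S100a9 and 87.5% of the S100a8 UMIs. By number of UMIs the Advanced gate held 19037 of S100a9, beside 14134 in B-cells and 6004 in monocytes. In B-cells S100a9 was 1.89 CPM in the Early library and 270.1 CPM in the Advanced library, and S100a8 was 1.06 and 252.3 CPM. Nearly all of this Advanced signal came from 3 droplets of 5856. A pair of cycling B-gated droplets held 6655 and 6371 S100a9 UMIs with 6561 and 5637 S100a8 UMIs, and also 2799 and 2526 UMIs of Camp and 1412 and 1557 of Ngp, both neutrophil granule genes, beside 37 and 12 UMIs of Cd79a. Their S100a9 counts exceeded the 5493 of the richest Early neutrophil. The third held 475 S100a9 and 544 S100a8 UMIs, 24 of Cd79a, 8 of Csf3r and 0 of Camp. In the same way 1 droplet of the non-classical monocyte gate, with 5989 S100a9 UMIs, 2179 of Camp and 10 of Ace, held 99.8% of that gate's S100a9. Without droplets that held 50 or more S100a8 and S100a9 UMIs together, B-cells had 1.89 and 12.1 CPM of S100a9 and 1.06 and 8.85 CPM of S100a8.

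The S100a9 left after these droplets lay at a similar low level in cell types that are not known to express it. In the Advanced library a UMI of S100a9 was detected in 9.34% (7.70 to 11.2) of CD23+ CD21-low B-cells, at a median depth of 6652 UMIs, and in 10.2% (7.19 to 13.9) of naive-like CD8 T-cells, at a median depth of 12257 UMIs. In the Early library the shares were 1.39% (0.841 to 2.17) and 4.35% (0.110 to 21.9, 1 of 23 cells). No cell of these gates held more than 3 S100a9 UMIs. The depths of these gates are unlike, and the shares are not read as a measure of expression. In CPM the Advanced levels were 13.4 in CD23+ CD21-low B-cells and 9.86 in naive-like CD8 T-cells. Whether these UMIs are free RNA was not tested. Thinned to 1000 UMIs per cell, the shares of the Advanced library were 1.33% (0.749 to 2.19) and 0.872% (0.180 to 2.53).

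Counted per cell with fewer than 5 UMIs of the gene, S100a9 in B-cells went from 0.0145 UMIs in the Early library to 0.108 in the Advanced library, a ratio of 7.47 (6.09 to 9.24). Of 15 neutrophil genes listed, 12 had a UMI in Early B-cells and 14 in Advanced B-cells, with summed levels of 4.53 and 203.4 CPM and at most 5 and 5029 UMIs in 1 cell. Counted below 5 UMIs per cell in the same way, 7 of the 15 had a ratio with an interval wholly above 1 and 1 below it (Mpo, 0.171), with the other 7 spanning 1, and the median of the 12 with an Early UMI was 2.60. Among them Lcn2 had 9.33, Camp 7.82, Ngp 6.79, Wfdc21 3.17, Ltf 2.83, Il1r2 2.38 and Csf3r 1.10, so that the genes of the list did not share 1 ratio. S100a8 itself had 9.74. All 10 T-cell genes listed had intervals above 1 in B-cells, from 1.37 for Lck to 25.8 for Nkg7 with a median of 7.98. Counted in this way, Lck had 992 UMIs in Early B-cells, beside 98 for Trbc2 and fewer for the others of that list. Whether B-cells transcribe Lck was not tested, and without it the lowest ratio was 2.06, for Cd4. S100a9 per cell in the Advanced library was 0.0979 in CD23+ CD21-low B-cells, 0.126 in CD23+ CD21-high B-cells, 0.122 in naive-like CD8 T-cells, 0.0857 in monocytes and 0.175 in DCs. The number of S100a9 UMIs per S100a8 UMI in that library was 1.29 in neutrophils, 1.24 (0.926 to 1.65) in CD23+ CD21-low B-cells, 1.46 (1.12 to 1.92) in CD23+ CD21-high B-cells, 1.91 (1.11 to 3.36) in naive-like CD8 T-cells and 2.31 (1.26 to 4.45) in DCs.

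S100a4 in most B-cells was at a low level close to that in naive-like T-cells. In the Advanced library the count per cell, among cells with fewer than 5 UMIs, was 0.0811 in CD23+ CD21-low B-cells, 0.0924 in CD23+ CD21-high B-cells and 0.0880 in naive-like CD8 T-cells, against 2.0 in monocytes and 0.570 in DCs. The share of CD23+ CD21-low B-cells with a UMI was 7.56% (6.08 to 9.27), that of naive-like CD8 T-cells 8.72% (5.96 to 12.2) and that of precursor T-cells 9.09% (3.73 to 17.8). S100a6 differed from this, at 0.183 and 0.209 UMIs per cell in the CD23+ B gates and 0.0944 in naive-like CD8 T-cells. S100a10, by contrast, was detected in most B-cells and its variance over its mean after thinning was 1.05 and 1.10, close to that of counting alone.

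**Figure D3:**
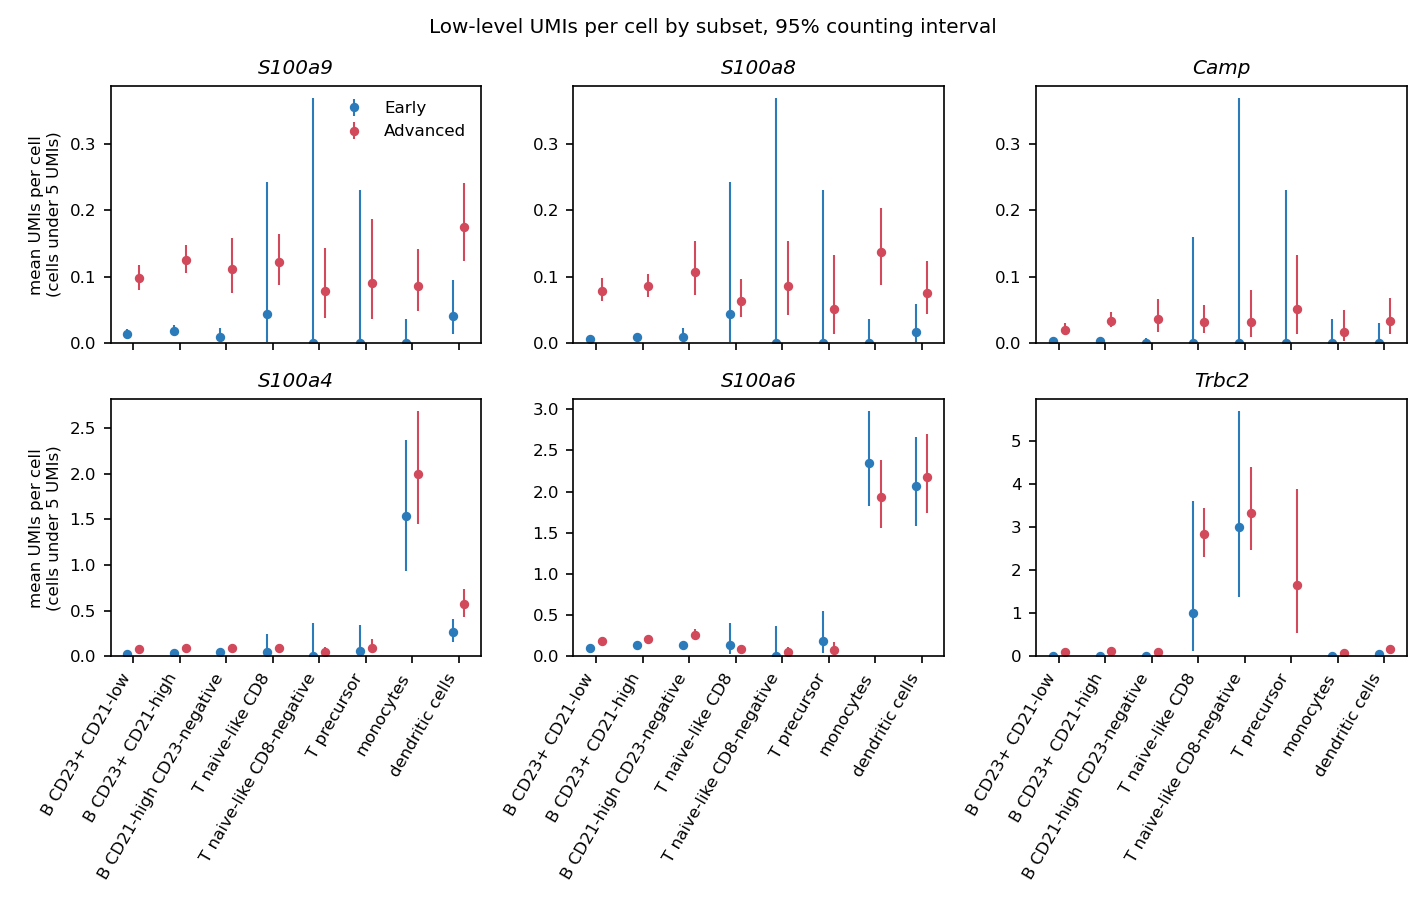
Mean UMIs per cell of S100a9, S100a8, Camp, S100a4, S100a6 and Trbc2 among cells with fewer than 5 UMIs of the gene, in B and T gates, monocytes and DCs of both libraries. S100a9 in the Advanced library lies between 0.0781 and 0.175 in the gates shown, while S100a4 rises to 2.0 in monocytes.

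Summed levels of S100a4 in the B gates were low and at times set by single cells. They were 4.06 and 18.5 CPM in CD23+ CD21-low cells, 3.88 and 17.0 CPM in CD23+ CD21-high cells and 28.9 and 9.61 CPM in B1-like cells. Activated B-cells, gated on Cd83, Egr2 and Egr3, had 18.1 and 300.3 CPM, and 4 of the 121 Advanced cells held 96.9% of the latter. In plasma cells 1 Early cell with 111 UMIs held 97.4% of the signal, so that the level was 95.6 and 5.42 CPM.

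The S100a4 UMIs of B-cells that exceeded the low level sat in few droplets. In the Early library 5 of 7530 B-cells held 10 or more S100a4 UMIs, and these 5 carried 61.7% of all S100a4 UMIs of the class. In the Advanced library 16 of 5856 carried 67.2%. Their median depth was 16670 and 25480 UMIs, compared with 6584 and 7442 in the other B-cells. Flt3, a DC and progenitor receptor, was detected in 3 of 5 and 56.2% of them against 2.15% and 4.54% of the others, and Itgax, the integrin CD11c, in 3 of 5 and 31.2% against 0.319% and 0.942%. Ighm was detected in all 21 of these droplets, Ighd in 4 of 5 and 16 of 16, and Cd3e in 0. Whether they are doublets with DCs was not tested.

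For lymphocytes grouped as memory-linked (regulatory, helper, NK-gene memory and gamma delta T-cells; 93 and 541 cells) and naive-like (33 and 472 cells), members were counted as higher when at least 10 CPM in 1 group and with a 95% interval wholly above 2-fold. Of the 7 members at 10 CPM, 5 were higher in each library, compared with 1.68% of 7495 genes in the Early and 2.82% of 6960 genes in the Advanced library, and nothing is read from this contrast because the members were chosen on it. S100a4 had 1190 UMIs against 1 in the Early library, and a ratio of 28.5 (23.2 to 35.2) in the Advanced library. For S100a6 the ratios were 44.8 (22.7 to 104) and 49.4 (40.0 to 61.6). Ahnak followed with 4.41 (2.85 to 7.16) and 6.17 (5.42 to 7.04), and S100a11 with 3.72 and 2.23. S100a10 was among the higher genes in the Early library only by this rule, at 2.90 (2.41 to 3.53) and 1.85, and Lgals1 in the Advanced library only, at 2.40 and 3.73, while Vim was in neither, at 1.55 and 1.60. The difference between libraries was not tested.

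Partner genes listed with the members gave 6 and 8 of 24 higher in memory-linked T-cells, beside 1.68% and 2.82% of all genes. Cd44, the hyaluronan receptor used as a memory marker, had ratios of 5.46 and 9.49. Anxa2, which encodes the annexin bound by S100A10, had 15.0 and 7.39. Lgals3, galectin-3, was at 110.9 CPM in Early memory-linked cells with 0 UMIs in naive-like cells, and 11.5-fold higher in the Advanced library. Of the other S100 genes, S100a13 reached the 10 CPM level with ratios of 1.43 and 1.56 and was not counted as higher. On the log2 scale the median ratio of CPM + 1 was 1.89 in both libraries for the members and 0.92 and 0.39 for the partner genes. Nothing is read from the difference, because the members were chosen on this contrast.

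In B-cells the same rule was applied to B1-like cells (106 and 172) against CD23+ B-cells (2677 and 2252). In the Early library 4 of 7 members were higher, beside 1.54% of all genes at 10 CPM, and in the Advanced library 3 of 8, beside 2.17%. Nothing is read from these counts either, because the members were chosen by their levels in the same cells. S100a6 had ratios of 12.0 and 5.60, Ahnak 10.9 and 6.03, and Lgals1 3.90 and 4.06. S100a4 was 7.30-fold higher in the Early library, where 4 cells with 5 or more UMIs held 80.0% of the 40 UMIs, and at a ratio of 0.545 in the Advanced library. Among the partner genes Itgb1, the integrin β1 chain, was 6.14- and 7.25-fold higher, Anxa2 5.20 and 3.63 and Cd44 2.72 and 2.50. In the Advanced library S100a4 in B1-like cells was not higher than in CD23+ B-cells. The CD23+ level leaned on few cells there, as 2 CD21-low cells held 61 of 152 UMIs and 2 CD21-high cells 92 of 196.

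Within the T gates S100a4 was divided between cells. In regulatory T-cells 15 of 47 Early cells (31.9%, 19.1 to 47.1) and 45 of 135 Advanced cells (33.3%, 25.5 to 42.0) held 5 or more UMIs, and these held 98.3% and 97.5% of the S100a4 of the gate. Of the rest, 78.1% and 80.0% had none. Only 1 and 2 cells held 3 or 4 UMIs and 0 and 1 held 5 or 6, so few cells lay near the limit of 5, which was chosen with the data seen and marks a range and not a cell type. The median depth was 7055 UMIs in the S100a4-high and 6882 in the other Early cells, and 6477 and 6580 in the Advanced library. Shares for the other members are given as a description, because the members were chosen together by their levels in the same cells. At least 5 S100a6 UMIs were found in 80.0% and 75.6% of S100a4-high regulatory T-cells and in 12.5% and 7.78% of the rest. For S100a11 the shares were 80.0% and 71.1% against 18.8% and 12.2%, and for Lgals1 80.0% and 48.9% against 21.9% and 8.89%. Vim was closer, at 53.3% and 48.9% against 28.1% and 20%.

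The S100a4-high regulatory T-cells differed from the rest in genes that are no members. Of 12 genes of a T memory list at 10 CPM, 4 and 5 were higher, compared with 0.646% and 0.917% of all genes. Icos, the inducible costimulator, had ratios of 3.89 and 3.39 and the transcription factor gene Maf 4.41 and 3.51. The chemokine receptor gene Ccr2 had 31 UMIs against 0 and 78 against 0, and Gzmb, granzyme B, 8 against 0 and 14 against 0. Prdm1, which encodes Blimp-1, was counted as higher in the Advanced library, with 29 UMIs against 4. Ccl5 went the other way there, at a ratio of 0.334. Of 10 genes of a T naive list, 1 and 6 were lower, against 0.152% and 0.31% of all genes. Ccr7, the lymph node homing receptor, had ratios of 0.0727 and 0.140, and in the Advanced library Satb1 had 0.144, Bach2 0.112, Actn1 0.153 and Dapl1 0.0472.

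Helper cells showed the same division. S100a4-high cells made up 11 of 26 and 31 of 123. Again as a description, 5 or more S100a6 UMIs were found in 90.9% and 54.8% of them and in 13.3% and 4.35% of the rest. Of 11 T memory genes, 2 and 4 were higher, beside 0.293% and 1.72% of all genes. The tissue-homing receptor Cxcr6 was 42.7-fold (7.21 to 1729) and 28.3-fold (13 to 73.2) higher. Icos was 2.82-fold higher in the Advanced library but is one of the genes of the gate. Of 10 T naive genes 4 and 8 were lower, beside 0.16% and 0.165%, Igfbp4 with 0 UMIs against 26 in the Early and 1 against 263 in the Advanced library.

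**Figure D4:**
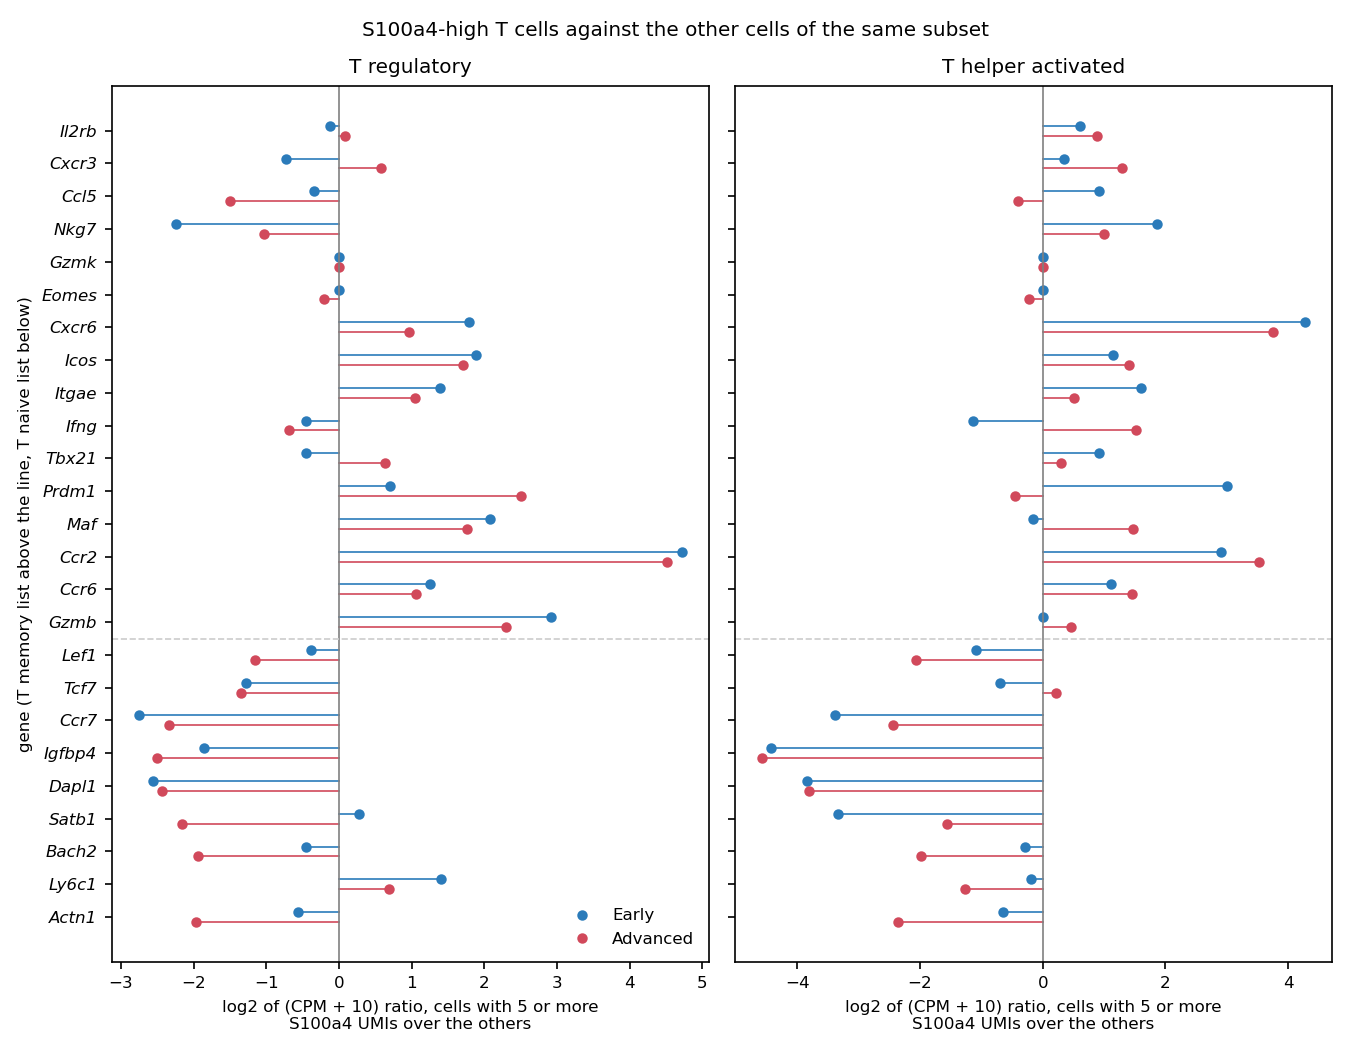
Log2 ratio of CPM (with 10 CPM added) in cells with 5 or more S100a4 UMIs over the other cells of the regulatory and helper T gates, for each gene of the T memory (16 genes) and T naive (9 of 10 genes shown) lists in both libraries. Ccr2 and Icos lie to the right of 0 and Ccr7 to the left in both gates and libraries.

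A like measure was taken in B-cells with the 7 members other than S100a3, S100a8 and S100a9. After thinning to 1000 UMIs, 31 of 7449 Early (0.416%) and 45 of 5688 Advanced (0.791%) B-cells held 5 or more UMIs of these members, with 58 and 67 cells 1 UMI under the limit. B1-like cells made up 19.4% and 17.8% of them, against 1.42% and 3.02% of all B-cells scored. Bhlhe41, a B1-cell transcription factor, was at ratios of 9.38 (5.75 to 14.5) and 2.69 (1.69 to 4.07) to the other B-cells. Bhlhe41 and Zbtb32 are genes of the B1-like gate, so their ratios are not independent of the share of B1-like cells. Cr2, the complement receptor CD21, stood at 0.357 and 0.341. Itgax had ratios of 82.1 and 26.2 and Cd80 11.3 and 7.64, and a UMI of a DC marker was found in 19.4% and 24.4% of these cells against 2.80% and 7.48% of the others. The part of DC RNA in these ratios was not tested, and where cells with any T or myeloid marker UMI were left out, 22 and 29 cells were left and Cd80 was at 0 in the high-scoring Advanced cells. The genes named here are examples from longer B memory and B naive lists, which were not counted. No memory or naive state of these cells is therefore read from them. Over 4 alternative settings the naive genes Fcer2a and Ighd spanned 1 in the Early library (0.884 to 1.34 and 0.654 to 1.03). In the Advanced library they lay below 1 (0.608 to 0.916 and 0.528 to 0.671). Zbtb32 ran from 0 to 23.8 and from 9.01 to 23.3.

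Between stages, the question was which members differed in PLN cells of mice with Early and Advanced arthritis. In B-cells 4 of 9 members at 10 CPM were higher in the Advanced library, beside 0.517% of 6962 genes, and 0 were lower, beside 0.0%. Nothing is read from this count, or from those of T-cells, monocytes and DCs below, because the members were chosen by their levels in the same cells. S100a4 went from 11.7 to 33.5 CPM, a ratio of 2.85 (2.61 to 3.12), and Ahnak from 8.46 to 19.0 CPM, a ratio of 2.25 (2.01 to 2.51). S100a8 and S100a9, with ratios of 239 (186 to 313) and 143 (119 to 175), were the others, and without the droplets described above their ratios were 8.39 (6.41 to 11.1) and 6.43 (5.24 to 7.95). S100a10 and S100a11 were level at 0.983 (0.959 to 1.01) and 0.969 (0.946 to 0.991). Lgals1, at 1.78 (1.66 to 1.91), and Vim, at 1.38, were above 1 and short of the rule. S100a4 remained above 2-fold without the B-cells that held 10 or more of its UMIs, at 4.50 and 11.1 CPM and a ratio of 2.46 (2.12 to 2.86), and without the B-cells that had a UMI of a DC gene (Flt3, Itgax, Fscn1, Ccl22 or Cacnb3), at 2.57 (2.21 to 3.00), where Ahnak was at 2.09 (1.85 to 2.35) and lost the call. Under stricter gates both S100a4, at 2.23, and Ahnak, at 2.15, lost the call, and with the shares of 7 B subsets held fixed Ahnak was at 1.98 (1.77 to 2.21) and S100a4 at 2.65 (2.42 to 2.90). In cells with fewer than 5 UMIs of S100a4, its count per B-cell went up 3.07-fold (2.62 to 3.60). Beside it stood 1.37- to 25.8-fold for the 10 T-cell genes (from 2.06-fold without Lck) and 2.22-fold for the myeloid gene Lyz2. The mean of S100a4 over all cells of the library went up 1.92-fold. The part of free RNA in the S100a4 difference was not tested.

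In T-cells the direction was the opposite for S100a4 and Lgals1. Of 8 members, 2 were lower in the Advanced library, beside 3.08% of 7498 genes, and 1 was higher, beside 0.52%. S100a4 went from 958.6 to 389.3 CPM, a ratio of 0.406 (0.387 to 0.426), and Lgals1 from 1208 to 520.2 CPM, a ratio of 0.431 (0.413 to 0.449), which lost the call at 0.503 with TMM factors and at 0.496 with totals that left out immunoglobulin, ribosomal protein and mitochondrial genes. On the log2 scale the median ratio of CPM + 1 was -0.21 over all genes tested in T-cells and -0.75 over the members. The higher gene was S100a8, with 1 UMI against 180, of which 97 came from 1 cycling T-cell. The makeup of the T-cells differed as well, since naive-like CD8 cells were 13.7% of Early and 29.9% of Advanced T-cells, NK-gene memory cells 7.74% and 17.9%, regulatory cells 28.0% and 11.7%, and cycling cells 14.3% and 2.79%. With the shares of 8 T subsets held at the mean of both libraries, the ratio was 0.707 (0.667 to 0.749) for S100a4, 0.743 for Lgals1, 0.841 (0.792 to 0.894) for S100a6, 0.966 (0.913 to 1.02) for S100a10 and 1.09 for Vim. None of these was beyond 2-fold, except that under stricter gates, which kept 45 Early and 210 Advanced T-cells, Lgals1 was at 0.355 and Vim turned to 0.689. Each was nearer to 1 than in all T-cells, where S100a6 was at 0.597, S100a10 at 0.636 and Vim at 0.550. Ahnak moved from 1.02 to 1.13.

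Within T subsets the stage ratios differed by member. In regulatory T-cells S100a4 was at 0.677 (0.613 to 0.747), S100a6 at 1.11 (0.975 to 1.27) and Ahnak at 1.35 (1.09 to 1.67). Lgals1 there was at 0.651 (0.569 to 0.745), but at 1.00 (0.848 to 1.18) without the cell of each library with most of its UMIs. In helper cells, of which the Early library held 26, S100a6 was at 0.288 (0.252 to 0.330), S100a11 at 0.399 (0.343 to 0.465) and Lgals1 at 0.280 (0.240 to 0.329), and S100a4 at 0.579. Of the 378 Early S100a6 UMIs there, 131 came from 1 cell.

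As whole classes, monocytes and DCs had members called between stages only where few cells held most of the UMIs. In monocytes 2 of 9 members were higher, beside 0.506% of 7704 genes, and 0 were lower, beside 0.389%. These were S100a8, at 4.08 and 2791 CPM, and S100a9, at 0 and 3373 CPM. Without the 1 droplet described above S100a8 was at 4.08 and 13.8 CPM (ratio 3.39, 1.27 to 11.4) and S100a9 at 0 and 8.63 CPM. S100a4 was at 0.876 (0.834 to 0.920), S100a6 at 0.984, S100a11 at 1.36 (1.22 to 1.51) and Ahnak at 1.55 (1.34 to 1.80). Lgals1 in monocytes, at 0.658, was 0.974 without the top cell of each library. Under stricter gates, with 29 and 41 monocytes, Lgals1 turned to 2.05, S100a4 to 1.10 and S100a6 to 1.25, and Ahnak was at 2.40. In DCs 1 of 8 members was higher, beside 0.266% of 7887 genes, and 0 were lower, beside 0.241%. It was S100a3, at 31.0 (8.40 to 259), which rested on the 2 cDC2 cells given above. The DC ratios of S100a4, S100a6, S100a10 and S100a11 ran from 1.01 to 1.09, with Vim at 1.35 (1.27 to 1.43) and Lgals1 at 0.848 (0.802 to 0.896). Stricter gates kept 21 DCs of each library and gave 3.68 for Vim, 2.04 for S100a4 and 1.88 for S100a11. Subset shares were not held fixed in monocytes or DCs, and mature DCs were 32 of 123 Early and 72 of 211 Advanced DCs. S100a4 was lower in Advanced cDC2-gated (5766 and 3719 CPM), mature (5459 and 4515) and plasmacytoid DCs (508.0 and 372.6), and higher in cDC1-gated ones (39.0 and 57.4). In non-classical monocytes it was at 2423 and 1785 CPM. The part of subset makeup in these class ratios was not tested.

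**Figure D5:**
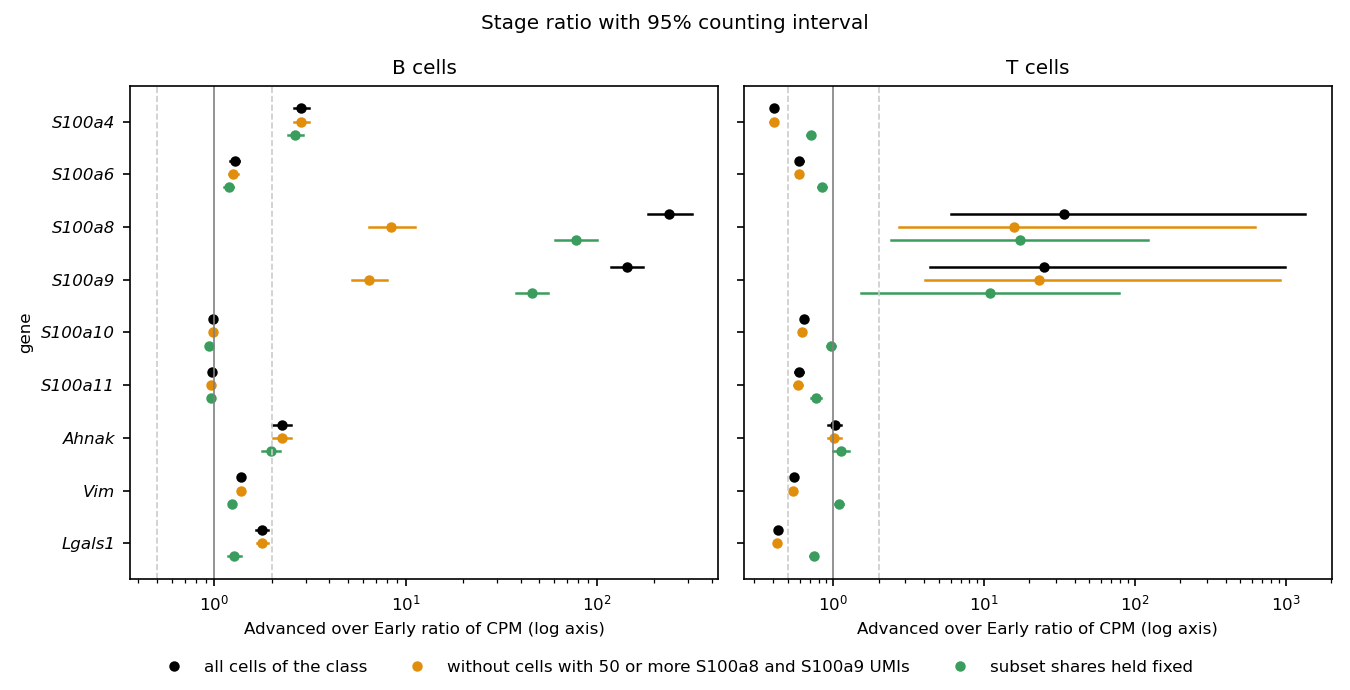
Ratio of CPM in the Advanced to the Early library (log axis, 95% counting intervals, dashed lines at 0.5 and 2) for 9 members in B-cells and T-cells, with all cells, without cells with 50 or more S100a8 and S100a9 UMIs, and with subset shares held fixed. With all B-cells S100a4, S100a8, S100a9 and Ahnak exceed 2, and in T-cells S100a4 and Lgals1 lie below 0.5 in all cells and above 0.5 with shares fixed.

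Genes whose pattern was most like that of a member were named from 30 levels (15 subsets in 2 libraries, cells sharing depth and library) over 5297 genes, by the correlation of log2 levels, as a description. For S100a4 the nearest were Fam129a (r = 0.938), Ckb (0.904) and Rab8b (0.904). Itgb1 (0.893), Lgals3 (0.887) and Fam129a (0.885) were nearest to S100a6. Atp2b4 (0.901) and Selplg (0.897), which encodes the selectin ligand PSGL-1, were nearest to Ahnak, and Map4 (0.879) and Lta4h (0.863) to Vim.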

How the data were processed

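Popliteal lymph node cells were measured with the 10x Genomics 3′ single-cell kit in 2 libraries, each a pool of 3 mice. The authors deposited UMI counts per gene and barcode, already limited to called cells; the matrix header names Cell Ranger 6.0.1, whereas Cell Ranger 3.1 and 3.1.0 stand in the submitters' processing notes, beside mm10 and Seurat 4.0.3. Cells with at least 200 genes were gated on raw marker UMIs (for example 10 or more of B-cell genes such as Cd79a, Cd79b, Ms4a1 and Cd22 for B-cells, 5 or more of Cd3d, Cd3e and Cd3g for T-cells). UMIs were summed per subset and library and given as CPM with exact Poisson intervals; shares have exact Clopper-Pearson intervals and ratios exact conditional binomial intervals, all at 95%. The floor of a count of 0 is 3 UMIs of the subset total. A gene was called when it reached 10 CPM in 1 group and its interval lay wholly beyond 2-fold. No p-value was computed, since 1 library per stage gives no replicate. The call script was tested on simulated data. Ratios with subset shares held fixed weight each subset by the mean of its cell shares in both libraries and have a normal interval on the log scale. The alternatives included stricter gates, other totals, edgeR TMM factors, other minima and leaving out the cell with most UMIs of a gene. The members, gene lists and limits were chosen with earlier results of these data known. The text names the members, genes of the fixed lists that were called with some that were not, and the 2 or 3 genes most like a member. Python 3.11.15, numpy 2.4.6, scipy 1.17.1, pandas 2.3.3, R 4.3.3 and edgeR 4.0.16 were used. The values of 1 gene of the T naive list are not reported here.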

Additional observations from a re-analysis of the deposited data

Results flagged for a closer look

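The stage ratio (Advanced over Early CPM) of S100a4 was 2.85 in B-cells and 0.406 in T-cells, that is, the same gene was higher in 1 lineage and lower in the other. Lgals1 likewise had a ratio of 1.78 in B-cells, 0.431 in T-cells and 0.658 in monocytes. The differences between lineages were not tested, since each stage has 1 library. Beside these values stand the T-cell ratios with subset shares held fixed, 0.707 for S100a4 and 0.743 for Lgals1, and the B-cell ratio of Lgals1 among cells with fewer than 5 of its UMIs, 1.08 in CPM and 1.23 in UMIs per cell. Under stricter gates Lgals1 in monocytes turned to 2.05.

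The cells placed in no subset also held S100a4, at 970.2 CPM in the Early library and 550.7 CPM in the Advanced library. Those with markers of more than 1 lineage (85 and 360 cells) had 872.9 and 374.6 CPM, and the others (163 and 347 cells, median depth 985 and 1088 UMIs) had 1522 and 2038 CPM.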

How the results depend on the processing

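Of 511 values recomputed for 82 results, 349 kept their direction and stayed within the counting interval, or within 1.5 times for a count, 160 moved beyond it and 2 reversed. Under stricter gates the members higher in the Advanced library were 2 in B-cells (4 in the report), 0 in T-cells (1) and 0 in monocytes (2), the fixed-share T-cell ratio was 0.564 for S100a4 and 0.958 for S100a6, and S100a8 in monocytes reversed to 0.528. These gates kept 6930 and 4539 B-cells, 45 and 210 T-cells, 29 and 41 monocytes and 21 and 21 DCs, and also moved the T-cell, monocyte and DC ratios named in the report. With a minimum of 50 CPM they were 2 in B-cells, 0 in T-cells and 0 in DCs (1), and with no minimum 2 in T-cells. With totals that left out immunoglobulin, ribosomal protein and mitochondrial genes, T-cells had 2 members higher and 1 lower (2 in the report) and S100a6 a fixed-share ratio of 0.908. TMM factors gave 2 higher and 1 lower in T-cells. Without the 5% of cells with most UMIs, or without cells with 50 or more S100a8 and S100a9 UMIs (chosen after seeing the data), 0 members were higher in T-cells and in monocytes, and the former put S100a6 at 0.757. Without the top cell of each gene the counts were 0 in T-cells and 1 in monocytes. With each cell weighted equally, S100a4 at fixed shares was 0.753. Cd80 in high-scoring Advanced B-cells was 0.0 where cells with any T or myeloid marker UMI were left out. Where no value above names one, the cause was not tested. No paired analysis was possible because each stage is 1 pooled library. Cell numbers limit the precision, with 7 gamma delta T-cells, 12 cDC1-gated and 13 cDC2-gated cells in the Early library.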

Other observations

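Receptors of the S100A8 and S100A9 proteins were read beside the members. Bsg, which encodes CD147, was detected in all 4 classes, whereas Tlr4 was at 4.08 and 12.4 CPM in monocytes and 5.26 and 4.74 CPM in B-cells. Cd36, a scavenger receptor gene, was at 70.1 and 136 CPM in monocytes, and Cd33 at 41.1 and 26.4 CPM in DCs and 142.1 and 261.7 CPM in the neutrophil gate. Among the other S100 genes, S100a13 was at 75.1 and 87.7 CPM in B-cells and 196 and 170 CPM in T-cells. Anxa1, Lgals3 and Capg, 3 of the 24 partner genes that reached 10 CPM in T-cells, were called lower at the Advanced stage, beside 3.08% of all genes, and 0 were called higher. These are ratios of the whole class, without subset shares held fixed. In memory-linked T-cells alone Anxa1 was at 13.3 and 10.6 CPM, Lgals3 at 110.9 and 21.5 CPM and Capg at 355.0 and 151.3 CPM. In B-cells and monocytes 0 of 24 and in DCs 0 of 25 were called, beside at most 0.517% of all genes in either direction.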
